A study of Mus musculus with 20 samples.

Results

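The genes described here are the replication-dependent histone cluster genes of the mouse, taken as every symbol of both deposited count tables that begins with Hist1h, Hist2h, Hist3h or Hist4h. Of 70 such symbols the 1 that ends in -ps was left out, which gave 69 of 49568 symbols. By the class in their names, 6 encode H1, 20 H2a, 18 H2b, 12 H3 and 13 H4. In GENCODE M21 (GRCm38) 56 of them lie on chromosome 13, 10 on chromosome 3, 2 on chromosome 11 and 1 on chromosome 6. That annotation calls 67 protein coding and lists Hist1h2aj and Hist1h2al as pseudogenes.

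RNA was sequenced from 2 populations that had been sorted by fluorescence from bone marrow, the long-term stem cells of the blood (LT-HSC) and the multipotent progenitors they give rise to (MPP). Libraries of each population carry the label WT or AhR-KO, and the latter stands for a knockout of Ahr, which encodes the aryl hydrocarbon receptor. All 4 groups, of 5 libraries each, share the strain label C57BL/6, an age of 8 to 12 weeks and the absence of treatment. The series asked which genes downstream of the receptor bear on the function and proliferation of stem cells. The comparisons below are those of genotype within each population, of population within each genotype, and of the genotype effect between populations. The labels give that strain for AhR-KO libraries too, while the text on the mice sets C57BL/6 beside AHR KO. The knockout allele, the sort markers and the number of animals behind a library are not stated in the labels. The labels do not say that libraries came from separate animals, so the tests below measure the spread between these libraries. A lower value in such bulk samples can mean fewer cells that express a gene or less of its RNA per cell, and these cannot be told apart.

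Replication-dependent histone genes supply the protein that packages newly copied DNA, and their mRNA is at its highest while a cell passes through S phase. H2A, H2B, H3 and H4 form the core of the nucleosome, and H1 binds the linker DNA between nucleosomes. Unlike other mRNAs, most of these transcripts end just after a stem-loop near the stop codon and carry no poly(A) tail. The stem-loop is bound by SLBP, which takes part in cutting the transcript, in its translation and in its decay at the end of S phase. A smaller share of histone transcripts runs on to a downstream signal and is polyadenylated. Per the labels, mRNA was selected with oligo-dT beads, so the values below describe the RNA of these genes that such beads retained, with the tailed form favoured, and not their whole mRNA.

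The stem-loop was searched for in the annotated transcripts, because it marks the 3′ end that the library preparation does not favour. The motif was GGNNNTTNNNANNNCC on the transcript's strand, with its inner bases paired on both sides of the loop and G to T pairs allowed. It was found in the models of 46 of the 69 genes, at 21 to 58 bases after the stop codon. Of the other 23, 17 have models that run for fewer than 20 bases past the stop codon, counting the pseudogenes Hist1h2aj and Hist1h2al, entered at 0 bases. Among 47319 transcripts of other genes, 24 (0.0507%) hold the motif in the 100 bases after the stop codon. The sites below come from GENCODE M21 transcripts, 5′ to 3′ on the transcript's strand, with the stem-loop in capitals and up to 5 bases on each side. They are shown because the stem of H4 genes differs from that of the other classes and because most of these genes recur in the results.
Hist1h1c (H1), chr13:23739507-23739532, + strand: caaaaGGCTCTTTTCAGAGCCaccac
Hist1h2ap (H2a), chr13:21833026-21833049, - strand: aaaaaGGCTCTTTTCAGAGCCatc
Hist1h2bb (H2b), chr13:23747198-23747223, + strand: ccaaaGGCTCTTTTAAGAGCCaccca
Hist1h3e (H3), chr13:23561898-23561923, - strand: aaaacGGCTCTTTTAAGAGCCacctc
Hist1h4m (H4), chr13:21812124-21812147, + strand: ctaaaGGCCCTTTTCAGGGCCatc
Hist2h4 (H4), chr3:96262934-96262959, - strand: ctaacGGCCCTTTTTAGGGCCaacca
The most frequent form, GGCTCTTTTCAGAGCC, was that of 10 H2a, 8 H2b, 5 H3 and 3 H1 genes. No H4 gene carried it. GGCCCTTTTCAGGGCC was the form of 7 H4 genes and of no gene of another class. The models of Hist1h2ap and Hist1h4m end 3 bases after the stem-loop, whereas that of Hist1h1c goes on for 840 bases and that of Hist2h4 for 1257.

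Promoters were compared by class because H1 and core histone genes are known to be switched on in S phase through different elements. RefSeq promoter windows (GRCm38.p6, 250 bases before to 50 after the start) were matched for 61 of the 69 genes. The octamer ATTTGCAT, the element bound by the factor of Pou2f1 (Oct-1), lay on either strand in 7 of 17 H2a and 6 of 16 H2b windows and in none of the 6 H1, 10 H3 or 12 H4 windows. It lay in 1.71% of the 26964 windows other than these 61. The AC box AAACACA of H1 genes was found in 5 of 6 H1, 2 of 17 H2a and 2 of 16 H2b windows, and in 7.12% of the other windows. CCAAT was present in all H1, H2a, H2b and H3 windows but in 3 of 12 H4 windows, against 37.8% of the other windows. TATAAA was in 4 of 6 H1, 11 of 17 H2a, 8 of 16 H2b, 4 of 10 H3 and 8 of 12 H4 windows, against 14.1% of the other windows. Some neighbouring H2a and H2b genes are transcribed away from each other, so that their windows overlap and are not independent. The 120 bases before the start of 2 H1 genes and 1 H2b gene are printed to show these elements, in capitals on either strand.
Hist1h1b, chr13:21780626-21780745, - strand: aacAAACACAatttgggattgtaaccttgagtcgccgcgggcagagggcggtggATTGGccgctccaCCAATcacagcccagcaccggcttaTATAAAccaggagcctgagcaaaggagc
Hist1h1c, chr13:23738687-23738806, + strand: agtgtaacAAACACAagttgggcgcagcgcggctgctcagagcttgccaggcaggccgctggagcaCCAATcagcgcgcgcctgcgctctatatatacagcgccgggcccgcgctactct
Hist1h2bb, chr13:23746614-23746733, + strand: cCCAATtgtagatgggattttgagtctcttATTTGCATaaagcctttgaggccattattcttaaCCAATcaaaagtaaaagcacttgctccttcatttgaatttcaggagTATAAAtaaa
Hist1h1b and Hist1h1c share the AC box and the CCAAT element. The element TATAAA lies in the window of Hist1h1b and not in that of Hist1h1c. A match of these letters is a description of the window and shows no binding.

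Libraries held 13712668 to 21622653 counts. The targeted gene did not separate the labels: Ahr stood at 20.8 to 36.6 CPM (counts per 1000000 on totals scaled by the trimmed mean of M-values) in WT LT-HSC, at 18.5 to 29.7 in LT-HSC labelled AhR-KO, at 5.79 to 14.2 in the MPP of WT and at 9.79 to 19.2 in those labelled AhR-KO. A count over a whole gene does not check an allele that removes part of it, and AhR-KO below means labelled so. The markers followed the labelled populations, since 10 of 11 LT-HSC markers were lower and 6 of 6 MPP markers higher in WT MPP than in WT LT-HSC by edgeR's quasi-likelihood test, and in AhR-KO the counts were 11 of 11 and 6 of 6. The library WT LT-HSC 1 stood apart, with correlations of log CPM of 0.909 to 0.918 to the rest of its group, whose own correlations were 0.973 to 0.980. AhR-KO LT-HSC 2 and 3 held 942 and 1409 CPM summed over 8 neutrophil markers. The other AhR-KO LT-HSC libraries held 7.999 to 13.9 CPM and those of WT LT-HSC 6.18 to 90.8. No neutrophil marker was at 0 in all libraries of a group. For many of the counts and medians that moved when these libraries were left out, the value without them stands beside it.

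A few H2a genes, some with nearly the same counts, made up most of the summed level. The 69 genes summed to a median of 1366 CPM in WT LT-HSC (1108 to 2045), 1492 in AhR-KO LT-HSC (1063 to 1766), 1918 in WT MPP (1480 to 2138) and 2034 in AhR-KO MPP (1798 to 2214). H2a genes held 74.2% to 86.5% of this sum per library, with a median of 81.1%. H2b genes held 6.46% to 12.2%, H1 1.27% to 6.86%, H4 1.73% to 3.99% and H3 1.23% to 3.03%. As a mean over the 20 libraries and per kilobase of exon, Hist1h2ao stood at 837 ± 208 and Hist1h2ap at 835 ± 208 CPM (SD, n = 20). This SD spans libraries of all groups and does not measure a difference between genes of the same libraries. Hist1h2ag followed at 455 ± 112, Hist1h2af at 150 ± 35.8 and Hist1h2an at 116 ± 27.7. The highest genes of the other classes per kilobase were Hist1h2bc at 30.0 ± 6.47, Hist1h4d at 21.4 ± 6.94 and Hist1h1b at 19.2 ± 13.4. The 8 highest genes per kilobase were all H2a genes, and the lowest tested gene was Hist1h1d at 0.851 ± 0.384, whose model spans 7425 exonic bases.

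Many of these levels cannot be assigned to 1 gene. Counts of Hist1h2ao and Hist1h2ap differed by at most 27 in any library, at levels of 3868 to 11220 counts, and 93.5% and 93.1% of their sequences of 50 bases occur in the other. Counts of Hist1h2bq and Hist1h2br were identical in 19 of 20 libraries and differed by 1 in the other. Hist1h2ad and Hist1h2af, Hist1h2ah and Hist1h2an, and Hist1h2ai and Hist1h2aj stayed within 5.34%, 4.28% and 6.86% of each other in every library. How reads that match several places were counted is not given in the sources used here. If such a read was counted for each gene it matches, it enters the sums and class shares above repeatedly. The sums and the H2a share may therefore be too high, which was not tested. Pairs of genes were joined where at least 50% of the 50-base sequences of 1 occur in the other, and joined pairs were chained. The 69 genes then formed 30 families, of which 7 with more than 1 gene held 46 genes. The largest were 12 H2a, 11 H2b, 9 H3 and 6 H4 genes. A gene that stands alone can still share sequence, as Hist1h2ak does for 52.3% over all the others. Counts of calls over these genes therefore do not count independent measurements.

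Of the 69 genes, 60 passed the filter on low counts in every comparison: 5 H1, 16 H2a, 17 H2b, 10 H3 and 12 H4 genes. Of the 9 others, 6 were listed at 0 in all 20 libraries, namely Hist1h2aa, Hist2h2aa1, Hist2h2aa2, Hist2h2bb, Hist2h3b and Hist2h3c1. The exons of 5 of these 6 lie wholly inside exons of other annotated genes such as Gm20634 and Gm20628, as do those of no further gene of the 69. Hist1h2aa, a testis form of H2A, overlaps Gm44344 over 33.1% of its exonic bases. Hist1h1t, the H1 of the testis, reached at most 4 counts in a library, Hist1h4b 8 and Hist2h2ab 3. The kit did not mark strand, so reads of a gene and of an antisense neighbour are not told apart, and the H2a genes share 9.91% to 100% of their exonic bases with other annotated genes on either strand.

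**Figure D1:**
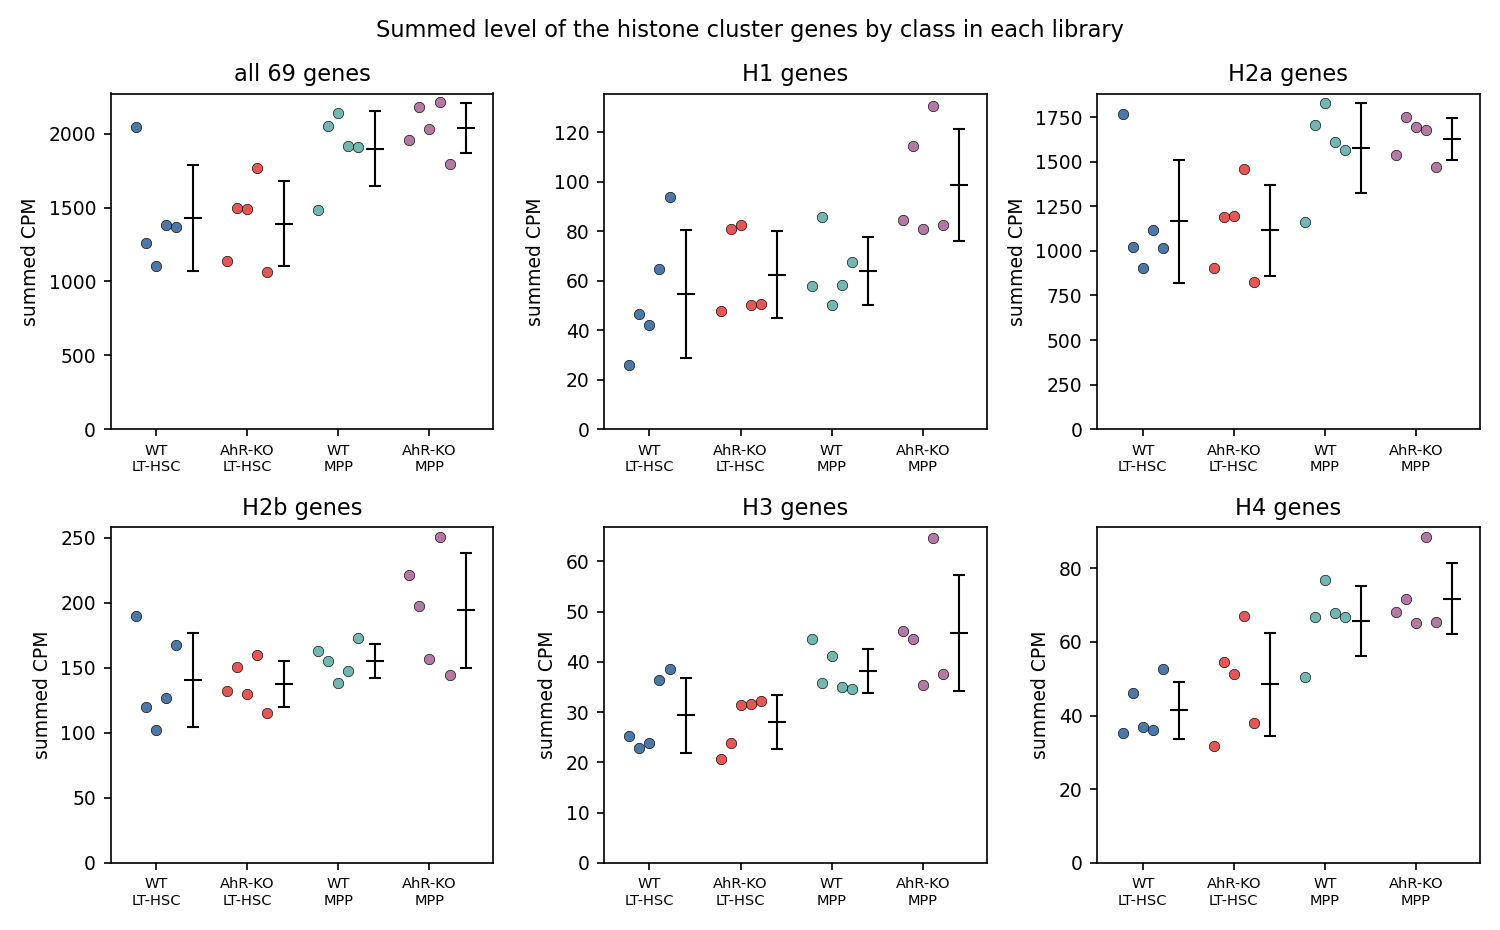
Summed CPM of all 69 genes and of each class (vertical axes, from 0) in each library (points) of the 4 groups, with the mean and SD over 5 libraries beside them. WT LT-HSC 1 stands at 1769 CPM for H2a, above the 903 to 1116 of its group, but at 25.9 CPM for H1, the lowest of all 20 libraries.

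The sums by class did not rank the libraries alike, as the plot of class sums shows. H1 genes summed to 25.9, 46.7, 42.0, 64.9 and 93.7 CPM in WT LT-HSC, 47.6, 80.7, 82.3, 50.4 and 50.8 in AhR-KO LT-HSC, 58.0, 85.6, 50.2, 58.3 and 67.5 in WT MPP and 84.7, 114, 80.8, 130.4 and 82.6 in AhR-KO MPP, each in the order of library numbers. AhR-KO MPP held the 2 highest H1 sums, and WT LT-HSC 8, AhR-KO LT-HSC 3 and WT MPP 2 lay within the range of its 5 libraries. H4 genes summed to 35.3, 46.2, 36.9, 36.0 and 52.8 CPM in WT LT-HSC, 31.7, 54.6, 51.3, 67.0 and 38.00 in AhR-KO LT-HSC, 50.4, 66.8, 76.8, 67.8 and 66.9 in WT MPP and 68.2, 71.8, 65.1, 88.4 and 65.4 in AhR-KO MPP. Except for WT MPP 1, the H4 sums of all MPP libraries lay above those of all WT LT-HSC libraries. H3 genes summed to 22.9 to 38.5 CPM in LT-HSC of WT and 20.7 to 32.3 in those of AhR-KO. In MPP their sums were 34.6 to 44.5 CPM for WT and 35.4 to 64.6 for AhR-KO. H2b genes summed to 102 to 189.5, 115 to 160.0, 138 to 173 and 145 to 251 CPM in the same order of groups, and these ranges overlapped.

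The comparison of MPP with LT-HSC asked how the genes differ between a stem cell population and its progeny, and 18 histone cluster genes rose in WT and 35 in AhR-KO while 0 fell in either. In WT, 18 of the 60 tested genes (30%) were higher in MPP at an adjusted p under 0.05 by edgeR's quasi-likelihood test, against 11.0% of all 17416 genes tested, and 0 were lower, against 11.3%. In AhR-KO, 35 (58.3%) were higher, against 12.5% of all genes, and 0 lower, against 10.7%. The median log2 fold change of the 60 genes was 0.48 in WT and 0.66 in AhR-KO, beside 0.01 and 0.01 over all genes tested. Values were above 0 for 49 genes in WT and 58 in AhR-KO. Without WT LT-HSC 1 the median in WT was 0.64, with 53 genes above 0, and that in AhR-KO 0.66, with 58. The libraries of MPP lay wholly above those of LT-HSC for 9 genes in WT (15%, against 8.31% of all genes) and for 23 in AhR-KO (38.3%, against 11.1%). They lay wholly below for 0 genes in either, against 8.10% and 10.4% of all genes. At an unadjusted p under 0.05 there were 35 genes in WT (58.3%, against 33.6% of all) and 45 in AhR-KO (75%, against 34.2%). By class, the genes called higher in WT were 2 of 5 H1, 7 of 16 H2a, 1 of 17 H2b, 4 of 10 H3 and 4 of 12 H4, and in AhR-KO 2 of 5 H1, 9 of 16 H2a, 8 of 17 H2b, 8 of 10 H3 and 8 of 12 H4. Without WT LT-HSC 1 the counts in WT were 2, 13, 5, 6 and 7, and without AhR-KO LT-HSC 2 and 3 those in AhR-KO were 3, 6, 3, 5 and 2, in the same order of classes.

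How many genes passed depended on single libraries and on the fit. In WT the count was 9 when the 10 WT libraries were fitted alone, 33 without WT LT-HSC 1 (all 18 among them), 9 without WT LT-HSC 4, WT LT-HSC 5 or WT MPP 2, and 10 without WT MPP 3. In AhR-KO it was 13 without AhR-KO LT-HSC 1, 17 without AhR-KO LT-HSC 7, 20, 21 and 14 without AhR-KO MPP 1, 2 and 4, and 19 without both AhR-KO LT-HSC 2 and 3. Without WT LT-HSC 1 and AhR-KO LT-HSC 2 and 3 together it was 27 in WT and 37 in AhR-KO. The share of all genes called in either direction moved with the fit too. In WT it was 22.3% on all libraries and 29.9% without WT LT-HSC 1. In AhR-KO it was 23.2% on all libraries and 18.9% without AhR-KO LT-HSC 2 and 3. Without these libraries together it was 29.0% in WT and 28.4% in AhR-KO. DESeq2's Wald test called 18 genes in WT, all shared with edgeR, and 41 in AhR-KO, of which 35 were shared. Without a filter on low counts edgeR called 5 and 16. In none of these fits was a histone cluster gene called lower.

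**Figure D2:**
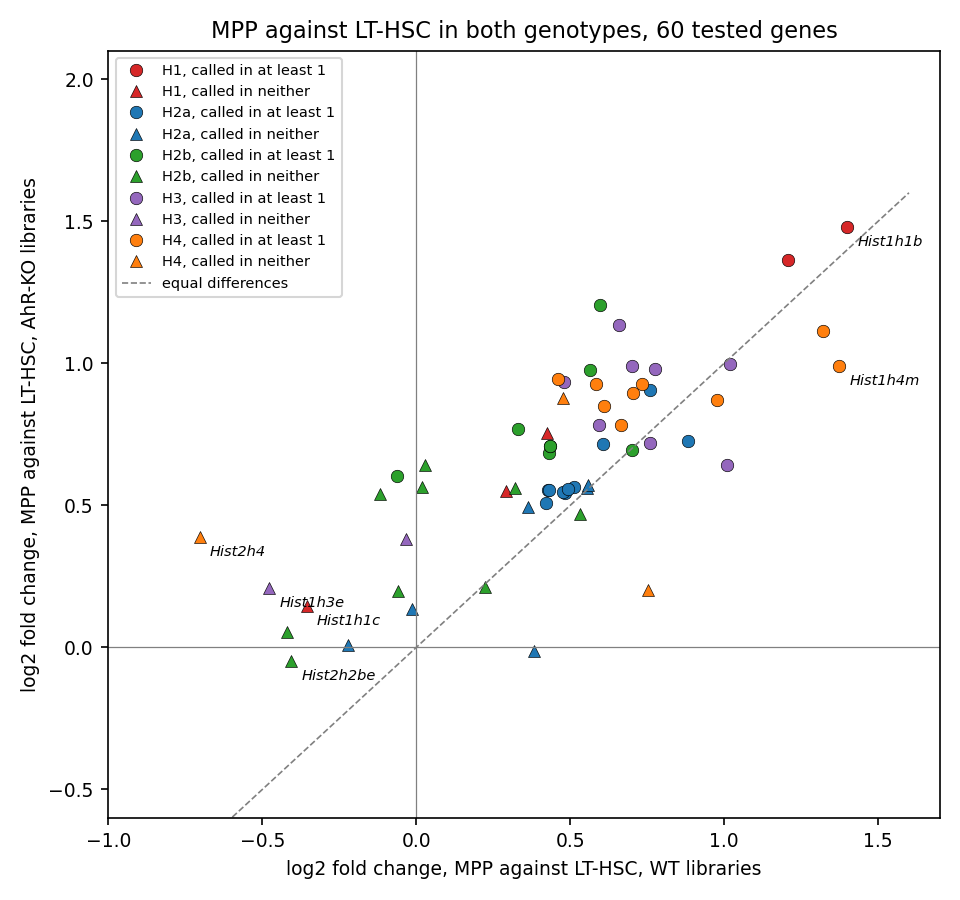
Log2 fold change of MPP against LT-HSC for each of the 60 tested genes in WT (horizontal axis) and in AhR-KO libraries (vertical axis), by class (colour), with circles for genes called in at least 1 genotype and triangles for the rest. Most points lie above 0 on both axes, and Hist1h1b is farthest to the upper right at 1.40 and 1.48.

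The 2 genotypes share no library, and their fold changes, set side by side in the plot of both genotypes, followed each other across the 60 genes (Pearson 0.754, Spearman 0.753, a description across genes that share reads). Of the genes called, 16 were called in both genotypes, which is 88.9% of those called in WT and 45.7% of those called in AhR-KO. Hist1h2ab and Hist1h4f were called in WT and missed the threshold in AhR-KO. Of the 26 families of shared sequence that were tested, 9 held a called gene in WT and 11 in AhR-KO. Of the 19 tested families of a single gene, 5 were called higher in each genotype, against 11.0% and 12.5% of all genes. These genes are not all free of shared sequence. Those called in WT include Hist1h4f and Hist1h4i, which share 39.5% and 28.9% of their 50-base sequences with other histone cluster genes. Among the 16 tested genes that share under 25%, 2 were called higher in WT, near the 11.0% of all genes, and 5 in AhR-KO. More calls in AhR-KO do not show a larger difference there. The test of the difference itself called 0 of the 60 genes (0% of all genes), with 2 genes at an unadjusted p under 0.05 (3.33%, against 6.46% of all genes) and 0 called by DESeq2. The smallest adjusted p was 0.750, that of Hist1h2bg.

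Among the H1 genes, Hist1h1b, which encodes a linker histone of dividing cells, rose most. It stood at 6.65, 3.80, 4.73, 5.77 and 7.07 CPM in WT LT-HSC 1, 4, 5, 6 and 8 and at 16.2, 22.3, 8.22, 10.9 and 16.2 in WT MPP 1 to 5. In AhR-KO LT-HSC 1, 2, 3, 4 and 7 it stood at 5.12, 16.7, 18.8, 4.71 and 2.97, and in AhR-KO MPP 1 to 5 at 26.0, 38.4, 20.7, 30.3 and 19.2. MPP lay wholly above LT-HSC in both genotypes, and AhR-KO LT-HSC 2 and 3, the libraries with neutrophil markers, lay above the 3 other AhR-KO LT-HSC libraries. The log2 fold change was 1.40 ± 0.42 in WT (SE, edgeR adjusted p = 0.0199) and 1.48 ± 0.41 in AhR-KO (adjusted p = 0.0132). Without AhR-KO LT-HSC 2 and 3 the latter was 2.62 ± 0.34 (adjusted p = 4.16e-05). Hist1h1a, another linker histone, rose 2.31-fold in WT from 1.02 ± 0.500 to 2.37 ± 0.642 CPM (SD, n = 5, edgeR adjusted p = 0.0147) and 2.57-fold in AhR-KO from 1.75 ± 0.579 to 4.52 ± 1.53 (adjusted p = 0.00568). Neither gene shares a 50-base sequence with another of the 69.

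The other H1 genes did not pass the test on all libraries. Hist1h1c, the H1 gene with the highest mean CPM, stood at 9.46, 26.3, 16.9, 31.8 and 56.0 CPM in WT LT-HSC, 18.9, 24.3, 19.1, 23.6 and 23.7 in WT MPP, 20.1, 26.5, 24.4, 26.0 and 23.96 in AhR-KO LT-HSC and 17.8, 23.1, 21.0, 43.4 and 28.3 in AhR-KO MPP. WT LT-HSC held both its lowest library, WT LT-HSC 1, and its highest, WT LT-HSC 8, so that all groups overlapped. Its log2 fold changes were -0.36 ± 0.32 in WT and 0.15 ± 0.32 in AhR-KO (SE, edgeR adjusted p = 0.484 and 0.803). Hist1h1e stood at 7.22, 12.1, 16.2, 19.99 and 22.1 CPM in WT LT-HSC, 15.2, 26.1, 15.3, 18.5 and 19.8 in WT MPP, 17.4, 30.0, 29.5, 12.8 and 15.7 in AhR-KO LT-HSC and 28.5, 35.5, 28.8, 37.5 and 24.2 in AhR-KO MPP. Its populations overlapped in both genotypes, and AhR-KO LT-HSC 2 and 3 were again the highest of their group. Its log2 fold changes were 0.29 ± 0.28 in WT and 0.55 ± 0.27 in AhR-KO (SE, edgeR adjusted p = 0.510 and 0.163), and without these libraries that in AhR-KO was 0.98 ± 0.29 and passed (adjusted p = 0.0239). Hist1h1e shares 25.7% of its exonic bases with exons of other genes, Hist1h2be among them. Hist1h1d had log2 fold changes of 0.42 ± 0.34 and 0.75 ± 0.34 and did not pass either.

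The 3 H2a genes with the highest mean CPM passed the test in AhR-KO and not in WT. Hist1h2ap stood at 533, 303, 267, 328 and 290.0 CPM in WT LT-HSC, 337, 498, 542, 474 and 467 in WT MPP, 265, 345, 352, 427 and 235 in AhR-KO LT-HSC and 449, 508, 499, 490.3 and 435 in AhR-KO MPP. WT LT-HSC 1 was the highest of its group by far, while the 4 others lay below all WT MPP libraries. The counts of Hist1h2ao differed from those of Hist1h2ap by at most 0.295% in any library. Hist1h2ag stood at 284, 167, 145, 182 and 165 CPM in WT LT-HSC, 171, 273, 301.5, 264 and 251 in WT MPP, 153, 187, 198, 244 and 133 in AhR-KO LT-HSC and 246, 281, 279.9, 257 and 236 in AhR-KO MPP. It showed the same high library in WT LT-HSC, and the same low one, WT MPP 1, among MPP. None of these 3 genes passed in WT (log2 fold changes of 0.43 ± 0.18, 0.43 ± 0.18 and 0.42 ± 0.18, SE, edgeR adjusted p = 0.0940, 0.0947 and 0.106). All 3 passed in AhR-KO (0.55 ± 0.18, 0.55 ± 0.18 and 0.51 ± 0.18, adjusted p = 0.0302, 0.0302 and 0.0485). Without WT LT-HSC 1, 13 of 16 H2a genes were called higher in WT, with a class median of 0.68 in place of 0.48.

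Hist1h2ae was the H2a gene with the smallest p in both genotypes. It stood at 7.65, 7.88, 6.06, 8.14 and 8.82 CPM in WT LT-HSC and 12.6, 15.2, 13.4, 11.8 and 12.2 in WT MPP, and at 6.24, 12.6, 11.7, 10.5 and 6.96 in AhR-KO LT-HSC and 17.5, 19.1, 15.6, 20.8 and 16.9 in AhR-KO MPP. MPP lay above LT-HSC in every library of both genotypes. It rose 1.69-fold in WT (log2 0.76 ± 0.18, SE, edgeR adjusted p = 0.00412) and 1.87-fold in AhR-KO (0.90 ± 0.18, adjusted p = 8.96e-04). The replication-linked H2a genes outside the main cluster did not pass: Hist2h2ac had log2 fold changes of 0.38 ± 0.36 and -0.01 ± 0.36, and Hist3h2a of -0.01 ± 0.25 and 0.13 ± 0.25 (SE).

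Of 17 H2b genes, 1 was called in WT on all libraries, namely Hist1h2bj at 0.70 ± 0.20 (SE, edgeR adjusted p = 0.0155). Its 3 genes with the highest mean CPM did not pass in WT. Hist1h2bc stood at 46.0, 28.9, 22.7, 26.2 and 37.0 CPM in WT LT-HSC, 30.1, 29.7, 27.7, 31.1 and 35.6 in WT MPP, 35.2, 37.3, 33.8, 39.9 and 29.8 in AhR-KO LT-HSC and 47.3, 40.7, 36.2, 50.8 and 27.1 in AhR-KO MPP. Hist1h2bg stood at 19.2, 13.3, 11.7, 15.3 and 21.2 CPM in WT LT-HSC, 15.2, 14.6, 12.3, 15.4 and 19.8 in WT MPP, 14.5, 14.2, 11.98, 16.5 and 11.1 in AhR-KO LT-HSC and 23.8, 20.2, 15.6, 29.2 and 14.95 in AhR-KO MPP. Both overlapped between all groups within a genotype, and Hist1h2bg passed in AhR-KO at 0.60 ± 0.20 (SE, edgeR adjusted p = 0.0339). Hist2h2be, on chromosome 3, stood at 21.1, 13.99, 14.7, 10.3 and 13.6 CPM in WT LT-HSC, 11.99, 14.9, 9.70, 10.1 and 8.87 in WT MPP, 9.64, 12.6, 14.2, 12.6 and 11.7 in AhR-KO LT-HSC and 14.4, 8.42, 8.25, 17.0 and 10.4 in AhR-KO MPP. Its log2 fold changes of -0.41 ± 0.22 and -0.05 ± 0.22 were below 0 in both genotypes, and neither passed. In AhR-KO the H2b genes with the smallest p were Hist1h2bb, at 2.90 ± 1.121 CPM in LT-HSC and 6.70 ± 1.03 in MPP (SD, n = 5, edgeR adjusted p = 0.00170), and Hist1h2bk, at 5.44 ± 1.16 and 10.7 ± 2.22 (adjusted p = 0.00228).

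H3 genes held the smallest median share of the sum, and 4 of 10 were called higher in WT and 8 of 10 in AhR-KO. Hist1h3i stood at 1.57, 2.54, 2.85, 2.80 and 2.499 CPM in WT LT-HSC, 5.38, 4.38, 5.42, 4.61 and 4.90 in WT MPP, 2.38, 2.52, 3.50, 4.02 and 2.97 in AhR-KO LT-HSC and 5.47, 4.61, 4.33, 5.40 and 4.27 in AhR-KO MPP. No LT-HSC library reached an MPP library of its genotype, and WT LT-HSC 1, high for H2a genes, was the lowest here. It rose 2.01-fold in WT (log2 1.01 ± 0.20, SE, edgeR adjusted p = 0.00109) and 1.56-fold in AhR-KO (0.64 ± 0.20, adjusted p = 0.0243). Hist1h3b, Hist1h3c and Hist1h3h also passed in both genotypes, with log2 fold changes of 0.77 ± 0.22, 1.02 ± 0.27 and 0.76 ± 0.20 in WT (SE). In AhR-KO Hist1h3b was at 0.98 ± 0.22 and Hist1h3h at 0.72 ± 0.20, and Hist1h3c rose 1.99-fold. These genes share 47.0% to 93.9% of their 50-base sequences with others of the 69, so they are not separate measurements. Hist2h3c2 passed in AhR-KO, at 1.14 ± 0.28 (edgeR adjusted p = 0.00560), and not in WT, at 0.66 ± 0.28.

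Of the 3 H3 genes with the highest mean CPM, 1 passed, in AhR-KO. Hist1h3e stood at 6.65, 4.53, 5.50, 11.0 and 10.6 CPM in WT LT-HSC, 7.36, 4.78, 5.31, 4.45 and 5.62 in WT MPP, 3.19, 5.19, 5.07, 6.81 and 8.29 in AhR-KO LT-HSC and 5.54, 5.69, 4.79, 11.8 and 5.20 in AhR-KO MPP. Hist1h3f stood at 4.61, 2.81, 3.26, 7.65 and 6.88 CPM in LT-HSC and at 5.996, 3.83, 4.79, 4.71 and 5.29 in MPP of WT, and at 2.64, 3.11, 4.55, 4.48 and 5.39 in LT-HSC and 5.68, 4.82, 3.46, 8.28 and 4.02 in MPP of AhR-KO. For both genes WT LT-HSC 6 and 8 were the highest LT-HSC libraries and AhR-KO MPP 4 the highest MPP library, and neither gene passed in either genotype (log2 fold changes of -0.48 ± 0.30 and 0.21 ± 0.30, and of -0.03 ± 0.29 and 0.38 ± 0.30, SE). Hist1h3d stood at 2.14, 3.31, 3.41, 5.17 and 4.43 CPM in LT-HSC and at 7.09, 4.68, 4.79, 4.92 and 4.30 in MPP of WT, and at 2.84, 3.16, 3.92, 3.61 and 2.90 in LT-HSC and 6.31, 6.12, 4.79, 8.99 and 5.25 in MPP of AhR-KO. It passed in AhR-KO, where the groups did not overlap (0.93 ± 0.24, edgeR adjusted p = 0.00679), and not in WT (0.48 ± 0.23, adjusted p = 0.158).

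The H4 genes with the smallest p in WT were Hist1h4m and Hist1h4n, of whose 50-base sequences 89.8% and 85.6% occur in other genes of the 69. Hist1h4m stood at 1.14, 1.59, 1.17, 1.02 and 2.07 CPM in WT LT-HSC, 2.38, 4.43, 4.97, 3.62 and 2.75 in WT MPP, 1.47, 1.53, 1.94, 2.42 and 1.94 in AhR-KO LT-HSC and 3.44, 4.75, 3.31, 3.94 and 3.09 in AhR-KO MPP. All MPP libraries lay above all LT-HSC libraries of their genotype. The rise was 2.59-fold in WT (log2 1.37 ± 0.26, SE, edgeR adjusted p = 7.57e-04) and 1.99-fold in AhR-KO (0.99 ± 0.26, adjusted p = 0.00852). Hist1h4n rose 2.499-fold and 2.16-fold (edgeR adjusted p = 0.00188 and 0.00650).

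Of the H4 genes with the highest mean CPM, Hist1h4d stood at 4.85, 25.8, 20.9, 13.2 and 16.7 CPM in WT LT-HSC, 20.7, 23.2, 33.6, 28.6 and 31.2 in WT MPP, 16.6, 28.9, 27.7, 35.0 and 16.7 in AhR-KO LT-HSC and 22.9, 29.7, 34.4, 31.0 and 25.8 in AhR-KO MPP. WT LT-HSC 1 was its lowest library, and the populations overlapped in both genotypes. Hist1h4i stood at 8.70, 4.62, 4.43, 4.53 and 6.04 CPM in LT-HSC and at 7.63, 9.35, 8.85, 10.2 and 8.81 in MPP of WT, and at 3.85, 7.22, 5.49, 7.31 and 3.99 in LT-HSC and 12.49, 10.1, 7.49, 10.4 and 7.60 in MPP of AhR-KO. It passed in both genotypes, at 0.66 ± 0.23 in WT, where WT LT-HSC 1 overlapped with MPP, and at 0.78 ± 0.23 in AhR-KO, where the groups did not overlap (SE, edgeR adjusted p = 0.0433 and 0.0177). Hist1h4c stood at 4.23, 1.72, 1.58, 2.48 and 3.16 CPM in LT-HSC and at 3.27, 4.87, 4.17, 3.47 and 2.31 in MPP of WT, and at 1.42, 2.97, 2.82, 3.47 and 2.36 in LT-HSC and 5.54, 4.25, 3.41, 8.08 and 3.87 in MPP of AhR-KO. It passed in AhR-KO (0.94 ± 0.32, edgeR adjusted p = 0.0377) but not in WT (0.46 ± 0.32, adjusted p = 0.340). Hist2h4, on chromosome 3, had the lowest value of the 60 genes in WT, -0.70 ± 0.47, and stood at 0.39 ± 0.48 in AhR-KO, neither of which passed.

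**Figure D3:**
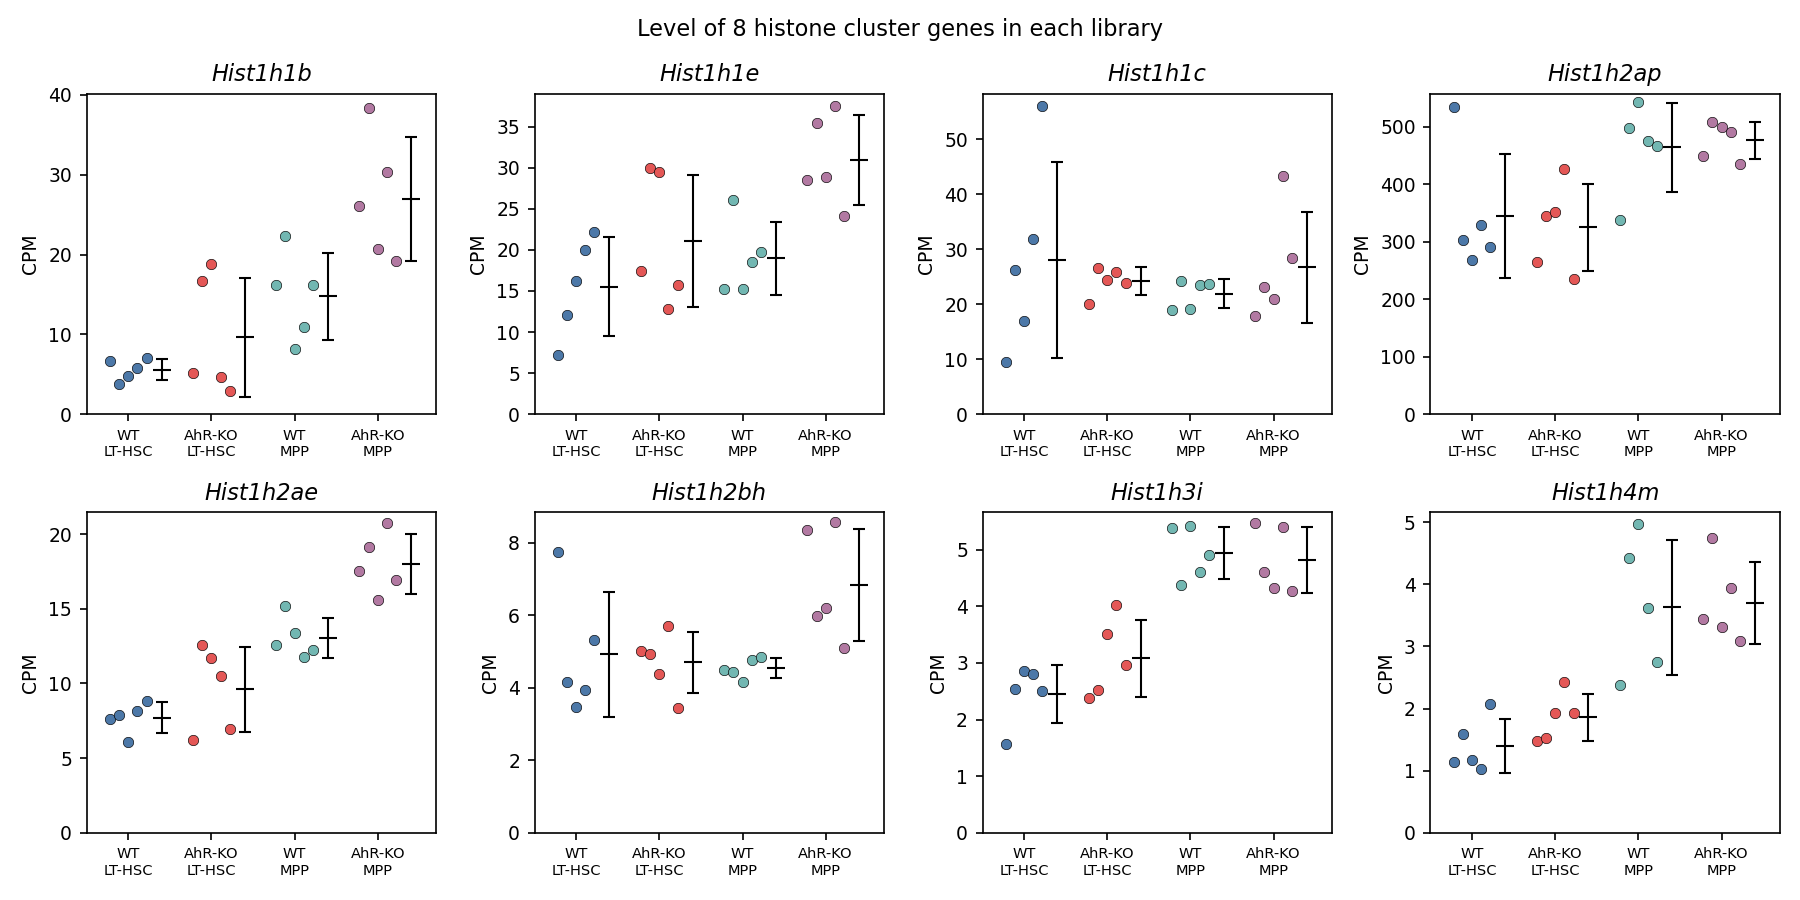
CPM (vertical axes, from 0) of 8 histone cluster genes in each library (points) of the 4 groups, with the mean and SD over 5 libraries beside them. Hist1h3i and Hist1h4m separate MPP from LT-HSC in both genotypes, Hist1h1c separates no group, and Hist1h2ap has 1 high WT LT-HSC library at 533 CPM.

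The calls were also set against the length of the annotated transcript past the stop codon, since stem-loop and polyadenylated ends lie at different distances. Of the 60 tested genes, 21 have 300 or more annotated bases after the stop codon, and 39 have fewer. Models without an annotated stop codon were entered at 0 bases, and the 39 include the pseudogenes Hist1h2aj and Hist1h2al, entered at 0. In WT, 1 of the 21 (Hist1h4i) and 17 of the 39 were called higher in MPP, against 11.0% of all genes, with medians of 0.36 and 0.56. Without WT LT-HSC 1 the counts were 5 and 28, the medians 0.22 and 0.70, and 29.9% of all genes were then called in either direction. In AhR-KO, 7 of 21 and 28 of 39 were called, against 12.5% of all genes, with medians of 0.55 and 0.69. Without AhR-KO LT-HSC 2 and 3 the counts were 4 and 15 and the medians 0.62 and 0.67. The plot of fold change by annotated length gives Spearman correlations of -0.399 in WT and -0.166 in AhR-KO, a description across 60 genes that share reads and libraries. Genes with values below 0 in WT were Hist2h4, Hist1h3e, Hist3h2ba, Hist2h2be, Hist1h1c, Hist1h2al, Hist1h2bh, Hist1h2bg, Hist1h2bc, Hist1h3f and Hist3h2a, and 8 of these 11 belong to the 21 with long models. When WT LT-HSC 1 was left out, 16 of the 21 and 37 of the 39 were above 0. The split was chosen after the values were seen, and the difference between long and short models was not tested. Of the 16 tested genes that share under 25% of their 50-base sequences, 2 were called higher in WT and 5 in AhR-KO, beside 16 and 30 of the other 44. The 2 of 16 in WT are near the 11.0% of all genes. The counts were 3 and 30 in WT without WT LT-HSC 1, and 3 and 16 in AhR-KO without AhR-KO LT-HSC 2 and 3.

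**Figure D4:**
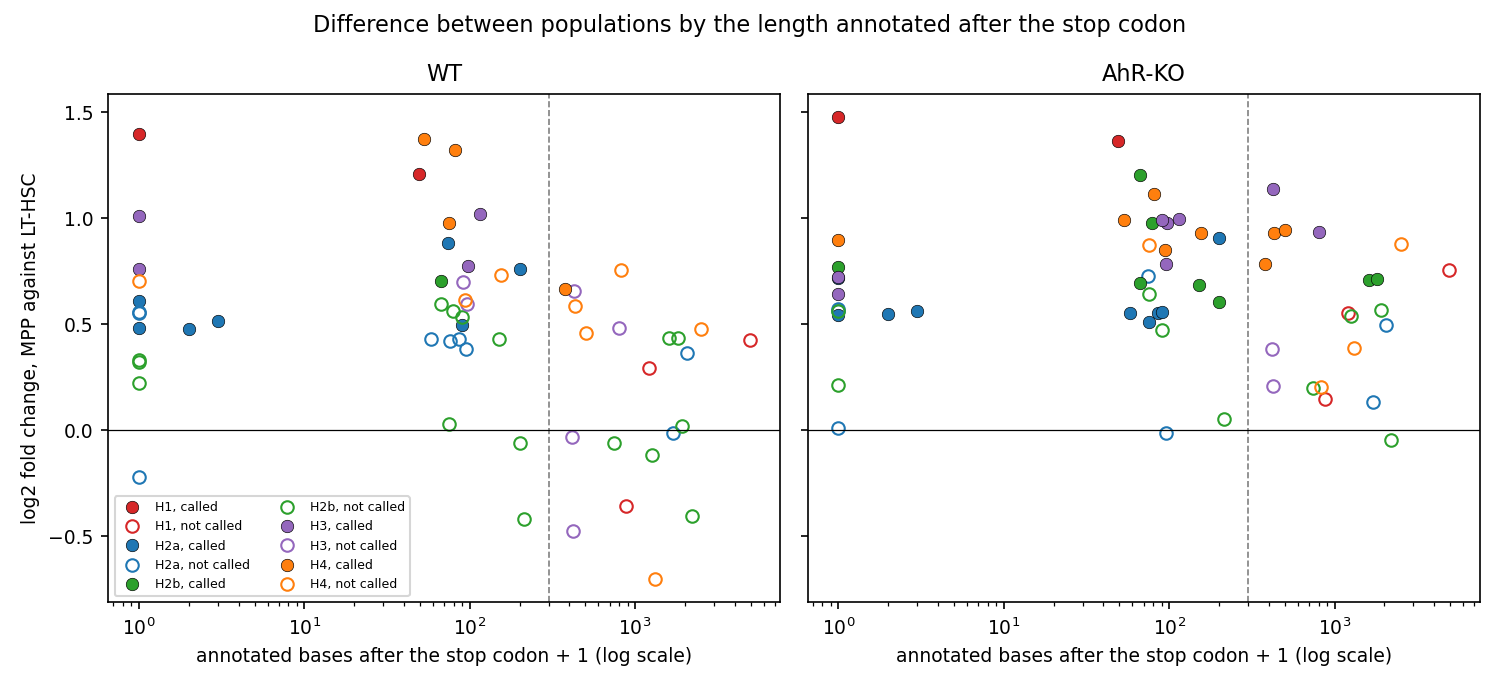
Log2 fold change of MPP against LT-HSC (vertical axis) by the number of annotated bases after the stop codon plus 1 (horizontal axis, log scale) for 60 genes in WT (left) and AhR-KO (right), by class, filled where called, with a dashed line at 300 bases. In WT 1 gene to the right of the line is called, and in AhR-KO 7 are. The pseudogenes Hist1h2aj and Hist1h2al were entered at 0 bases.

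The 22 S phase genes of a list for comparison, most of them of DNA replication, were set beside the comparison of populations. All 22 had values above 0 in both genotypes, and 12 were called higher in each (medians 0.43 and 0.39), against 11.0% and 12.5% of all genes. The summed level ranged from 3842 to 5089 CPM in WT LT-HSC and from 5040 to 6291 in WT MPP. The genes called were 17 in WT and 15 in AhR-KO without WT LT-HSC 1, where 29.9% and 32.2% of all genes were called in either direction. Ccna2, the cyclin of S and G2 phase, rose by 0.84 ± 0.13 in WT (SE, edgeR adjusted p = 9.68e-05), Cdc45, of the replicative helicase, by 0.89 ± 0.15, and Tk1, a thymidine kinase, by 0.54 ± 0.11 and 0.64 ± 0.11 in WT and AhR-KO. In AhR-KO Gins1, of the same helicase, rose by 0.93 ± 0.15 and Prim1, a primase subunit, by 0.69 ± 0.15 (adjusted p = 1.80e-04 and 0.00173). Markers of mature cells differed between the populations too. In WT MPP, 6 of 8 neutrophil, 6 of 8 B and plasma cell and 3 of 8 monocyte and macrophage markers were called higher than in WT LT-HSC, with summed levels of 383 to 713, 754 to 4193 and 290.3 to 550.3 CPM against 6.18 to 90.8, 43.1 to 89.0 and 45.9 to 107 CPM. Without WT LT-HSC 1 these counts in WT were 3, 6 and 4. In AhR-KO the counts were 0 of 8, 4 of 8 and 1 of 8 on all libraries, and 7, 6 and 7 without AhR-KO LT-HSC 2 and 3. Of 9 erythroid markers 0 were called higher and 1 lower in MPP of each genotype, at summed levels of 2027 to 3704 CPM in WT LT-HSC against 1298 to 2189 in WT MPP, and of 2147 to 4941 in AhR-KO LT-HSC against 1028 to 1605 in AhR-KO MPP. The log2 fold changes of these 9 markers were above 0 for 0 genes in AhR-KO, but for 8 without AhR-KO LT-HSC 2 and 3, where 1 was called higher and 1 lower. None of the markers of these 4 lists was at 0 in all libraries of a group. Their part in the histone results was not tested.

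In the comparison of AhR-KO with WT in LT-HSC no histone cluster gene passed the test, and the values lay on both sides of 0. edgeR called 0 of 60 genes, against 0.00622% of all 16065 genes tested, and DESeq2 called 0. At an unadjusted p under 0.05 there were 2 (3.33%, against 8.85% of all genes), Hist3h2a and Hist2h4. The median was 0.01, with 33 genes above 0 and 27 below, beside a median of 0.00 over all genes. Hist3h2a, an H2A gene on chromosome 11, stood at 11.1, 7.84, 9.16, 9.27 and 11.6 CPM in WT and 6.19, 7.56, 7.64, 7.82 and 7.14 in AhR-KO. Among the 60 genes it was the 1 whose groups did not overlap (1.67%, against 3.63% of all genes, or 1.41% with AhR-KO lower), at a log2 fold change of -0.41 ± 0.15 (SE, edgeR adjusted p = 0.509). Trim17 and Gm44313 overlap it over 33.0% of its exonic bases. Hist2h4 stood at 1.90, 3.17, 1.17, 4.74 and 7.40 CPM in WT and 0.862, 1.24, 1.73, 2.51 and 1.94 in AhR-KO, with overlap (-1.14 ± 0.48, adjusted p = 0.550).

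By class the gene with the smallest p in LT-HSC was Hist1h1a among H1 (0.79 ± 0.38, SE, edgeR adjusted p = 0.571), Hist1h2bm among H2b (0.42 ± 0.26, adjusted p = 0.689) and Hist1h3i among H3 (0.34 ± 0.24, adjusted p = 0.726). H1 genes had a median of 0.46, with 4 of 5 above 0. Without AhR-KO LT-HSC 2 and 3 that median was -0.01, with 2 of 5 above 0, and without WT LT-HSC 1 as well it was -0.20, with 1 of 5. The log2 fold change of Hist1h1b was 0.81 ± 0.49 on all libraries, and leaving out AhR-KO LT-HSC 2 and 3 turned it to -0.38 ± 0.28. In this comparison 8 of 8 neutrophil, 9 of 9 erythroid, 8 of 8 monocyte and macrophage and 5 of 5 tested B and plasma cell markers lay above 0, with 0 called. Without AhR-KO LT-HSC 2 and 3 these were 0 of 8, 1 of 9, 4 of 8 and 2 of 5, again with 0 called. The 22 S phase genes had a median of 0.01 in LT-HSC, with 12 above 0 and 0 called. Those above 0 were 19 without WT LT-HSC 1 and 3 without AhR-KO LT-HSC 2 and 3. For all 60 genes the median was 0.17 without WT LT-HSC 1, with 48 above 0 and 0 called. Without AhR-KO LT-HSC 2 and 3 it was -0.02, with 27 above 0 and 0 called.

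**Figure D5:**
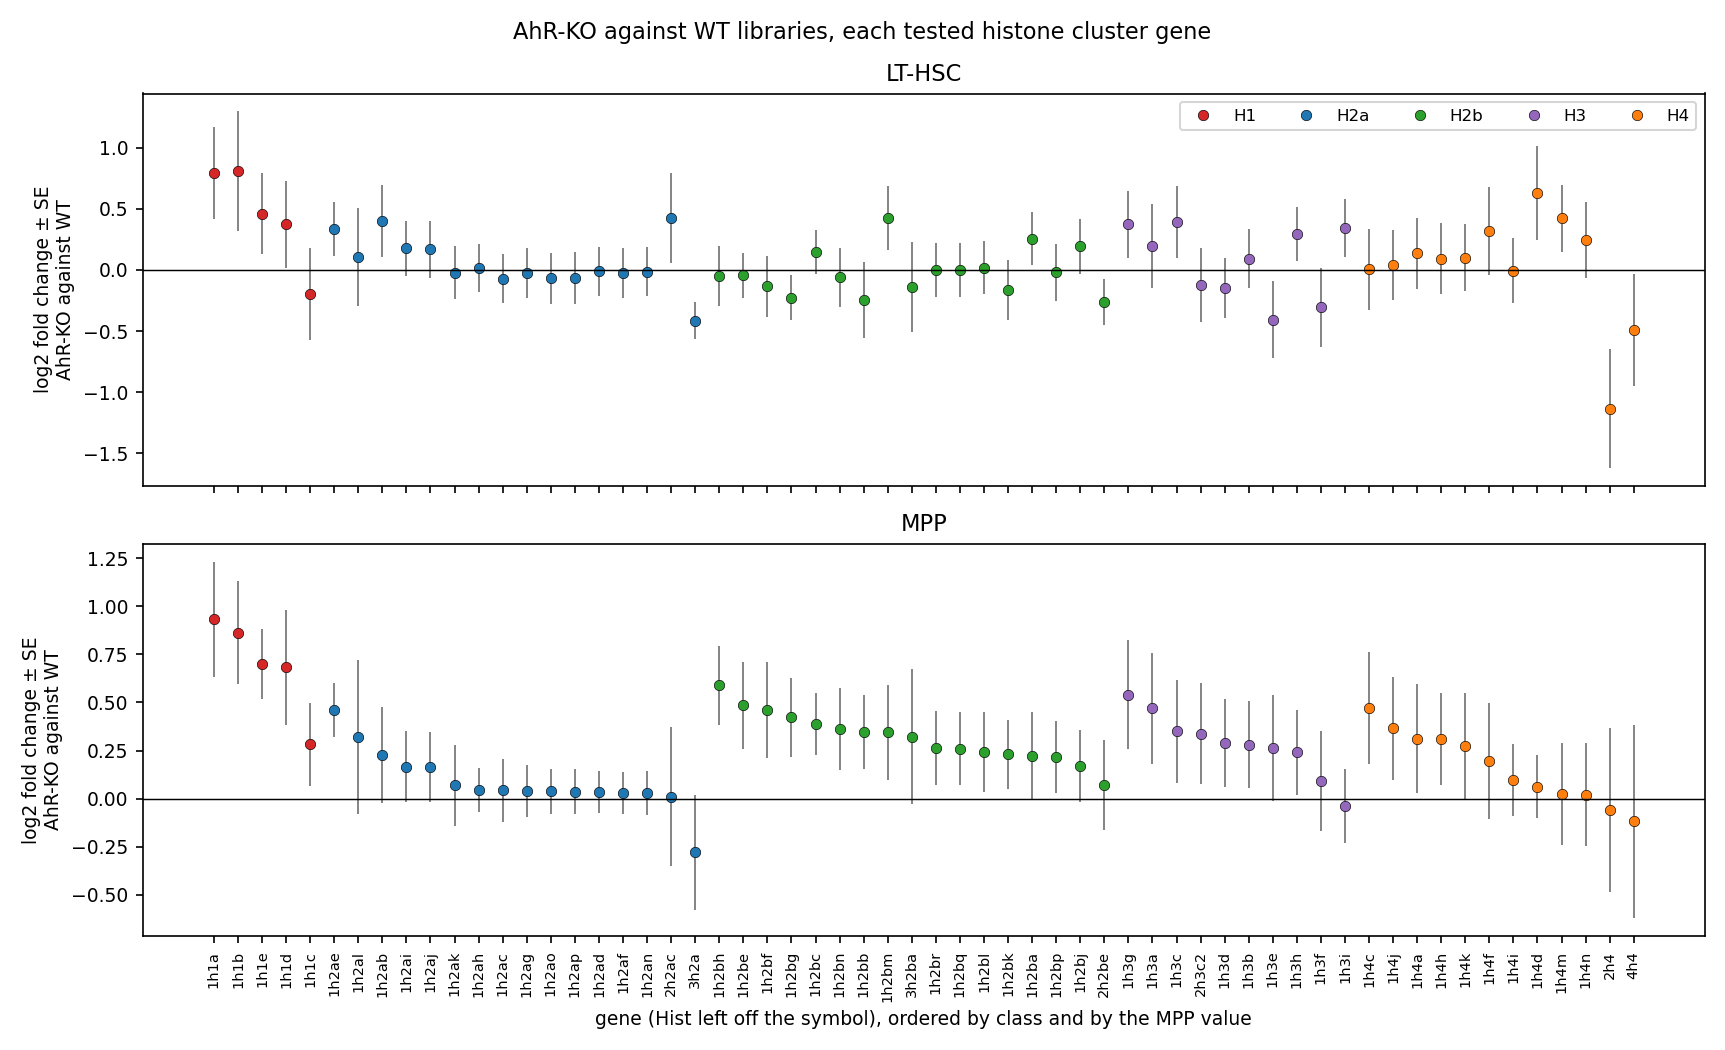
Log2 fold change of AhR-KO against WT with its SE (vertical axes) for each of the 60 tested genes (horizontal axis, by class) in LT-HSC (upper panel) and MPP (lower panel). No gene passed the test in either panel, and in MPP 56 of 60 values lie above 0.

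In MPP no gene passed either, but nearly all values of AhR-KO against WT lay on 1 side. edgeR called 0 of 60 genes, against 0.0311% of all 16077 genes tested (0.0187% higher and 0.0124% lower), and DESeq2 called 0. The median was 0.25, with 56 genes above 0, beside a median of 0.00 and 50.9% above 0 over all genes. At an unadjusted p under 0.05 there were 7 genes (11.7%, against 6.62% of all), 4 of them H1 genes. These genes share reads and libraries, so that the number above 0 is not a number of independent observations. The plot by gene gives the SE of each. The class medians were 0.70 for H1 (5 of 5 above 0), 0.32 for H2b (17 of 17), 0.28 for H3 (9 of 10), 0.15 for H4 (10 of 12) and 0.04 for H2a (15 of 16). With each library left out in turn the median over the 60 genes ranged from 0.14 to 0.35.

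Hist1h1e had the smallest p in MPP, at 0.70 ± 0.18 (1.62-fold, SE, edgeR adjusted p = 0.534). WT MPP 2, at 26.1 CPM, lay within the AhR-KO range of 24.2 to 37.5 CPM. Hist1h1b was at 0.86 ± 0.27 (adjusted p = 0.591), and AhR-KO MPP 5 and 3, its lowest, lay below WT MPP 2. Hist1h1a stood at 3.13, 2.39, 2.11, 1.45 and 2.75 CPM in WT MPP and 3.23, 5.25, 3.72, 6.87 and 3.53 in AhR-KO MPP, so that these groups did not overlap (0.93 ± 0.30, edgeR adjusted p = 0.614). Hist1h1c, by contrast, was at 0.28 ± 0.21, with AhR-KO MPP 4 at 43.4 CPM and the 4 other libraries at 17.8 to 28.3.

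Hist1h2ae and Hist1h2bh were the other genes whose MPP groups did not overlap, which makes 3 of 60 (5%) against 1.17% of all genes, or 0.610% with AhR-KO higher. For Hist1h2ae the highest WT MPP library, at 15.2 CPM, lay below the lowest of AhR-KO MPP, at 15.6 (0.46 ± 0.14, SE, edgeR adjusted p = 0.591). Hist1h2bh stood at 4.50, 4.43, 4.17, 4.76 and 4.85 CPM in WT MPP and 8.35, 5.97, 6.21, 8.58 and 5.10 in AhR-KO MPP (0.59 ± 0.21, adjusted p = 0.620). The WT values of Hist1h2bh were close together, and AhR-KO MPP 1 and 4 were the highest. Among H3 and H4 genes the smallest p were those of Hist1h3g (0.54 ± 0.28, adjusted p = 0.769) and Hist1h4c (0.47 ± 0.29, adjusted p = 0.808). The abundant Hist1h2ap had a log2 fold change of 0.04 ± 0.12. The 22 S phase genes had a median of -0.05 in this comparison, with 7 above 0 and 0 called, and Ccna2 stood at -0.39 ± 0.12 (adjusted p = 0.581). Of the markers of other cells, 7 of 8 B and plasma cell markers lay above 0 with 0 called, at summed levels of 338 to 1270 CPM in AhR-KO and 754 to 4193 in WT MPP, and their part in the result was not tested.

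The genotype effect was also compared between the populations. The median of that difference over the 60 genes was 0.19, with 48 above 0, beside 0.02 over all genes, and 0 genes passed, as given above. Without WT LT-HSC 1 the median was 0.10 with 37 above 0, and 3 of 16 H2a genes were above 0 in place of 14. Without AhR-KO LT-HSC 2 and 3 it was 0.25 with 53 above 0, 15 of 16 H2a genes among them. Leaving out all of these libraries gave 0.14 with 40 above 0. Hist1h2bg had the smallest p, at 0.67 ± 0.28, followed in its classes by Hist2h4 at 1.09 ± 0.67, Hist1h3e at 0.69 ± 0.43, Hist1h1c at 0.50 ± 0.45 and Hist2h2ac at -0.39 ± 0.51 (SE, edgeR adjusted p from 0.750 to 0.939). With each library left out in turn, Hist1h2bg ranged from 0.49 to 0.75, Hist2h4 from 0.54 to 1.31, Hist1h3e from 0.35 to 0.845, Hist1h1c from 0.0779 to 0.725 and Hist2h2ac from -0.61 to -0.26. The value nearest to 0 came without AhR-KO MPP 4 for Hist1h2bg, Hist2h4 and Hist1h3e, and without WT LT-HSC 8 for Hist1h1c.

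The genes that make and process histone mRNA were measured next to it. Slbp, whose protein binds the stem-loops printed above, stood at 559, 201, 224, 229 and 237 CPM in WT LT-HSC, 218, 254, 254, 223 and 184 in AhR-KO LT-HSC, 253, 325, 256, 288 and 285 in WT MPP and 249, 262, 293, 282 and 294 in AhR-KO MPP. WT LT-HSC 1, the library that was also high for H2a genes, held over 2 times the level of any other LT-HSC library. With it the difference of MPP from LT-HSC in WT was -0.04 ± 0.21 (SE, edgeR adjusted p = 0.916), and without it 0.34 (adjusted p = 0.0111), so 1 library turned the direction and the call. In AhR-KO it was 0.28 ± 0.21 (adjusted p = 0.3603). Leaving WT LT-HSC 1 out of that fit, which takes its spread from all groups, gave 0.28 ± 0.09 and the call (adjusted p = 0.0197). The genotype comparisons gave -0.34 ± 0.27 in LT-HSC and -0.03 ± 0.09 in MPP. Npat, which encodes a cyclin E target that switches on histone genes, stood at 34.5, 72.8, 89.5, 70.4 and 80.5 CPM in WT LT-HSC, 75.3, 77.9, 82.2, 64.5 and 63.2 in AhR-KO LT-HSC, 69.4, 91.0, 67.7, 62.2 and 46.2 in WT MPP and 58.0, 49.8, 62.7, 67.2 and 69.5 in AhR-KO MPP. There WT LT-HSC 1 was the lowest library of all 20, and all groups overlapped. Its log2 fold changes were -0.05 ± 0.20 and -0.24 ± 0.20 for MPP against LT-HSC and 0.08 ± 0.22 and -0.13 ± 0.16 for AhR-KO against WT, none of which passed.

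Of 22 genes of histone mRNA processing, transport and decay, 2 were higher and 0 lower in WT MPP than in WT LT-HSC, Ncbp1 of the cap-binding complex at 0.35 ± 0.10 and Srrt, its partner, at 0.46 ± 0.12 (SE, edgeR adjusted p = 0.0185 and 0.00691). In AhR-KO 1 was higher, Srrt at 0.33 ± 0.12 (adjusted p = 0.0434). Over all genes tested, 11.0% were called higher and 11.3% lower in WT, and 12.5% and 10.7% in AhR-KO. The counts of this list were not above these shares. Without WT LT-HSC 1 the counts were 4 higher and 1 lower in WT and 4 higher and 2 lower in AhR-KO. In that fit 29.9% and 32.2% of all genes were called in either direction. The medians of this list were 0.00 and -0.06, against 0.48 and 0.66 for the histone genes. Of 12 genes of the histone locus body and of histone gene transcription, 1 was higher in WT and 3 in AhR-KO, against 11.0% and 12.5% of all genes. That in WT was Pou2af1, a B cell coactivator of octamer factors, at 0 to 1.48 CPM in LT-HSC and 15.4 to 64.4 in MPP, and those in AhR-KO were Cdk2, Ccne2 and E2f1, at 0.49 ± 0.13, 0.54 ± 0.19 and 0.35 ± 0.12. The B and plasma cell markers given above differed between the populations as well. In each genotype 3 of the 12 locus body and transcription genes were higher without WT LT-HSC 1. Of 18 histone chaperone and related genes, 7 were higher and 1 lower in WT and 5 higher and 0 lower in AhR-KO, beside the same shares of all genes. Among those higher was Nasp, which binds H1 and free H3 and H4, at 0.88 ± 0.15 and 0.70 ± 0.15. Hat1, which acetylates new H4, and the chaperone gene Npm1 were at 0.42 ± 0.10 and 0.42 ± 0.08 in WT, and Nap1l1 and Rbbp4 at 0.23 ± 0.07 and 0.26 ± 0.07 in AhR-KO. The gene lower in WT was Chaf1b, a subunit of the H3 and H4 chaperone CAF-1, at -0.47 ± 0.13, or at -0.29 ± 0.09 without WT LT-HSC 1. Without that library 9 of the 18 were higher and 2 lower in WT, and 8 higher and 0 lower in AhR-KO. Without AhR-KO LT-HSC 2 and 3 it was 3 higher and 0 lower in AhR-KO. Several of these calls were near the threshold. With each of the 20 libraries left out in turn, E2f1, Ccne2 and Srrt in AhR-KO kept the call in 3, 3 and 1 of 20 fits, Nap1l1 and Rbbp4 in 13 and 15, and Ncbp1 in WT in 18. In both genotype comparisons 0 genes of these 3 lists were called. Those with the smallest p were Ncbp1 (0.33 ± 0.12), Cdk2 (-0.35 ± 0.15) and Chaf1b (-0.35 ± 0.16) in LT-HSC, which without WT LT-HSC 1 were at 0.23, -0.18 and -0.17. In MPP they were Cpsf2 (-0.23 ± 0.10), Pou2af1 (-1.04 ± 0.41, or -0.48 without WT MPP 3) and Tonsl (0.12 ± 0.08).

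Histone genes that are expressed outside S phase and polyadenylated as a rule were called in both directions. Of 10 such genes, 3 were higher and 2 lower in WT MPP than in WT LT-HSC, and 4 higher and 1 lower in AhR-KO. Of all genes, 11.0% were higher and 11.3% lower in WT, and 12.5% and 10.7% in AhR-KO. Without WT LT-HSC 1 the counts of the 10 genes were 6 and 1 in WT and 6 and 2 in AhR-KO. H2afy, which encodes macroH2A, rose 2.87-fold and 3.01-fold (edgeR adjusted p = 1.35e-09 and 1.04e-09). Cenpa, the H3 form of the centromere, rose by 1.23 ± 0.23 and 1.31 ± 0.23 on the log2 scale, and H1f0, the linker histone of resting cells, had a log2 fold change of -1.14 ± 0.19 in WT (SE, adjusted p = 1.98e-04). H2afj was at 0.60 ± 0.12 in AhR-KO. Their summed level in WT LT-HSC 1 was 7853 CPM, while the rest of its group held 3660 to 3870 CPM. In the genotype comparisons 0 of the 10 were called, with medians of -0.12 in LT-HSC and 0.08 in MPP. The median in LT-HSC was 0.15 without WT LT-HSC 1, with 9 of 10 above 0 in place of 2.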

How the data were processed

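The deposited tables hold whole-number counts per gene symbol, 1 table for 10 LT-HSC libraries and 1 for 10 MPP libraries. Per the submitters' processing notes, the authors used featureCounts of Subread 1.5.0p3, DESeq2 1.12.4, STAR 2.5.2b, Trimmomatic 0.36 and the build GRCm38.p5. The sources used here do not give the strand and multiple-hit settings or the annotation. Per the labels' protocols, the kit was TruSeq V2 with oligo-dT beads, and that text speaks of DC samples.

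Genes were filtered with filterByExpr and tested with edgeR 4.0.16 (R 4.3.3), using TMM scaling, robust quasi-likelihood F tests and Benjamini-Hochberg adjustment over all genes, at a threshold of 0.05. AhR-KO against WT was fitted on the 10 libraries of a population, and the other comparisons on all 20. SE was derived from the log2 fold change and F, as the absolute change over the root of F. DESeq2 1.42.0, other scalings and filters, a replicate block and left-out libraries were alternatives. Leaving out WT LT-HSC 1 together with AhR-KO LT-HSC 2 and 3 was chosen after seeing the data. The tests were tried on simulated counts. Totals of 13712668 to 21622653 counts set the precision. Genes named were the 8 with the smallest p among those called, the smallest p of a class with no call, the 3 most abundant of each class, Slbp and Npat, and up to 3 of each list, and genes named beyond this rule were chosen after their values were seen. The histone genes and all lists were chosen with earlier results of these data known.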

Additional observations from a re-analysis of the deposited data

Results flagged for a closer look

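In 12 of 160 groups of 5 values, the highest or lowest library lay farther from its nearest neighbour than Dixon's test allows at the 95% level. Chance flags about 1 in 20 such groups, and genes that share reads are not separate cases. WT LT-HSC 1 held 6 of the 12. Its H2a sum was 1770 CPM (903 to 1120 in the rest of its group). Hist1h2ap stood there at 533 CPM (267 to 328 in the others), Hist1h2ao at 532 (267 to 328) and Hist1h2ag at 284 (145 to 182). Slbp stood at 559 CPM (201 to 237) and Hist1h3i at 1.57 (2.5 to 2.85), the lowest of the group. AhR-KO MPP 4 was high for the H4 sum at 88.4 CPM (65.1 to 71.8) and for Hist1h3e at 11.8 (4.79 to 5.69). WT MPP 1 was high for Hist3h2a at 19.3 CPM (6.37 to 8.76) and for Hist1h3d at 7.09 (4.30 to 4.92). AhR-KO LT-HSC 4 was high for Hist1h4n at 2.33 CPM (1.37 to 1.62), and AhR-KO LT-HSC 1 was low for Hist2h3c2 at 1.17 (1.99 to 2.13).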

How the results depend on the processing

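The 0 calls of both genotype comparisons and of their difference held in each alternative. The calls of MPP against LT-HSC, 18 in WT and 35 in AhR-KO, were 5 and 16 without a filter on low counts. With the replicate block they were 1 and 6. Deviations of same-numbered libraries from their group means had correlations of -0.177 to 0.179. Differently numbered libraries were not set beside them, so these values cannot show whether the numbers pair libraries. The 10 WT libraries alone gave 9 in WT. Without AhR-KO LT-HSC 2 and 3 the count was 19 in AhR-KO. With 1 library left out the counts ranged from 9 to 33 in WT and from 13 to 44 in AhR-KO. The medians then ranged from 0.39 to 0.64 and from 0.52 to 0.72, from -0.09 to 0.17 for AhR-KO against WT in LT-HSC, from 0.14 to 0.35 in MPP and from 0.07 to 0.27 for the difference. Called in every setting were 0 genes in WT and 5 in AhR-KO (Hist1h1a, Hist1h1b, Hist1h2ae, Hist1h2bk and Hist2h3c2).

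Of single-gene values, 14 reversed, 15 lost and 2 gained a call, and 956 kept both. Npat in LT-HSC (AhR-KO against WT) was -0.0314 without AhR-KO LT-HSC 2 and 3 and -0.21 without WT LT-HSC 1 as well, which also gave 0.337 for Slbp in MPP against LT-HSC in WT (edgeR adjusted p = 0.00767) and 0.0777 for Npat in the difference of genotype effects. Hist1h1c in that difference was -0.401 with the replicate block. With 1 library left out, Slbp ranged from -0.459 to 0.0406 in LT-HSC and from -0.0739 to 0.0276 in MPP for AhR-KO against WT, from -0.166 to 0.337 for MPP against LT-HSC in WT and from -0.0536 to 0.415 for the difference. Npat ranged likewise from -0.093 to 0.183, from -0.239 to 0.00147 and, in WT, from -0.218 to 0.0471. The cause was not tested.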
